A study of Brassica napus with 12 samples.

Results

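A set of 88 *Brassica napus* genes was read in every root tip library of the variety Drakkar and was at or near 0 reads in every library of the variety Duplo. A gene was taken when it had at least 5 CPM (its reads per 1000000 reads on genes of the library) in all 6 Drakkar libraries and at most 3 reads in each of the 6 Duplo libraries. The set held 88 of the 101038 genes in the count tables (0.0871%) and 88 of the 24767 genes with at least 5 CPM in every Drakkar library (0.355%). The opposite choice, of genes with at least 5 CPM in every Duplo library and at most 3 reads in each Drakkar library, gave 62 genes. Because the members were chosen by these same reads, the difference between the varieties is given below as a description, without a test.

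The RNA came from root tips of 4 groups with 3 biological replicates each: Drakkar at 29 °C, Drakkar at 21 °C, Duplo at 29 °C and Duplo at 21 °C. Both are spring oilseed rape varieties, and no introduced allele or other treatment is given in the labels. Seeds germinated for 3 days on agar and the seedlings then grew for 7 days at the given temperature in pouches with nutrient solution, with 18 seedlings, taken from 3 experimental units, combined in a replicate. Sequencing depth was 26554987 to 39934384 reads on genes per library, so that 3 reads in a Duplo library corresponded to 0.0889 to 0.113 CPM. Of the 14 root tip and shoot markers looked up, only the endodermis gene CASP1 (BnaC04g09210D) could be matched to an identifier, with 1.94 to 8.91 CPM in the Drakkar libraries and 2.99 to 8.83 CPM in the Duplo libraries, so the tissue label could not be checked further. Differences in the number of cells of a type and in RNA per cell cannot be told apart in such bulk samples. Drakkar 29 °C replicate 2 and Duplo 21 °C replicate 2 stood apart from their groups in copies of a small heat-shock gene, whose values are given with the stretches of neighbouring genes.

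*B. napus* is an allotetraploid that carries an A subgenome, from the ancestor of *B. rapa*, and a C subgenome, from the ancestor of *B. oleracea*. Most genes therefore have a near-identical homoeologous copy on the other subgenome, and varieties of the species are known to differ in the presence of single genes and of longer segments, including segments in which one subgenome has replaced the other. A gene without reads in one variety can be missing from its genome, silent in the tissue, or too different in sequence for the reads to align to the reference, and counts alone do not separate these states. The identifiers used here hold the chromosome label and a number that runs along the chromosome, so that BnaC03g01720D and BnaC03g01730D are neighbours on chromosome C03. Identifiers with Ann, Cnn or Unn belong to sequence that was not assigned to a chromosome number, so how far apart on a chromosome such genes lie is not given by their numbers. Reads that could align to both homoeologs may have been divided between them, so the level of any single gene is uncertain to that extent.

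In Drakkar, the 88 genes had a mean of 5.58 to 99.5 CPM over the 6 libraries, with a median of 13.2 CPM (quartiles 9.06 and 20.7). The other 24679 genes with at least 5 CPM in every Drakkar library had a median of 17.7 CPM (quartiles 10.6 and 34.7). A mean of at least 50 CPM was reached by 7 of the 88 genes and by 16.5% of the other expressed genes. The 5 members with most reads held 24.1% of the reads of the set, and the first 10 held 37.8%. CPM values were not divided by transcript length, so the order of the members is one of reads and not of transcripts.

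**Figure D1:**
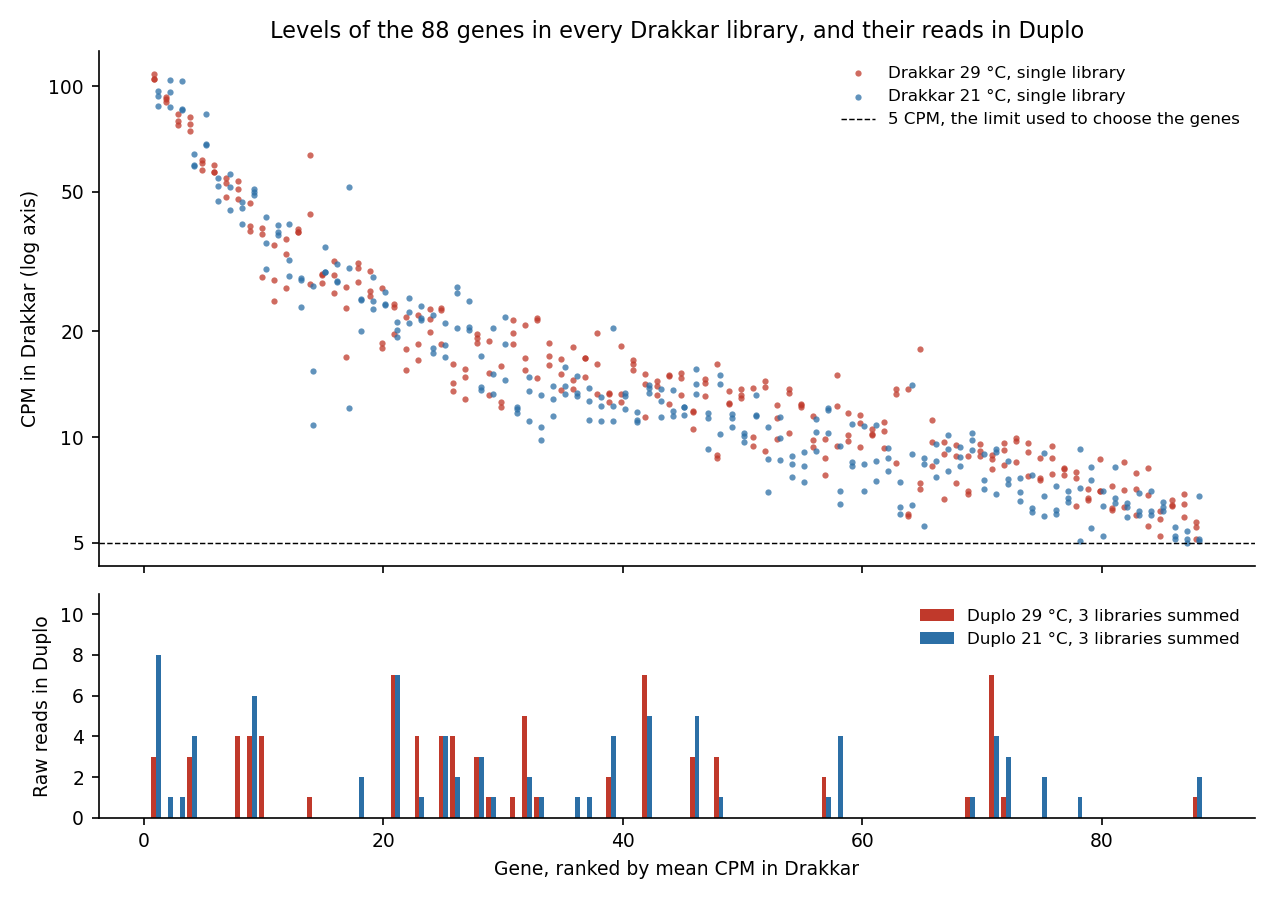
Upper panel: CPM of the 88 genes in each Drakkar library on a log axis, with 29 °C libraries in red and 21 °C libraries in blue, genes ranked by their mean. Lower panel: raw reads of the same genes in Duplo, summed over the 3 libraries of each temperature; the means in Drakkar run from 99.5 to 5.58 CPM, and no gene had more than 14 reads in the 6 Duplo libraries together.

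The gene with most reads was BnaC09g50690D, with 105, 108 and 105 CPM in Drakkar at 29 °C, against 87.9, 93.9 and 97.0 CPM in Drakkar at 21 °C. It had 3, 0 and 0 reads in the Duplo libraries at 29 °C and 3, 3 and 2 reads in those at 21 °C. The mean Drakkar CPM was 1632 times the CPM of its pooled Duplo reads, with an exact Poisson 95% interval from 912 to 3268. It covers only the counting error of the Duplo reads, pooled over both temperatures, and takes the Drakkar mean as fixed. The interval takes no account of the choice of genes with at most 3 reads in each Duplo library, which favours high ratios. The 29 °C libraries of Drakkar lay above the 21 °C libraries on this scale, but with TMM factors the log2 fold change was 0.07 (standard error 0.10).

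BnaA09g20730D had 93.0, 90.3 and 91.9 CPM at 29 °C, against 87.0, 104 and 96.1 CPM at 21 °C in Drakkar, and 1 read in all Duplo libraries together. The temperatures overlapped. BnaA05g19390D had 79.8, 77.5 and 83.3 CPM at 29 °C, all below its 85.6, 104 and 86.1 CPM at 21 °C, and likewise 1 read in Duplo. BnaA07g32570D lay higher at 29 °C, with 74.5, 81.8 and 77.8 CPM, against 59.4, 59.5 and 64.0 CPM at 21 °C, and its 7 Duplo reads were spread over 4 libraries. BnaA08g19440D went the other way, with 61.8, 60.3 and 57.7 CPM at 29 °C, against 68.3, 83.1 and 67.9 CPM at 21 °C, and had no read in Duplo. Its libraries at the 2 temperatures did not overlap, although the difference missed the threshold (log2 fold change -0.40, standard error 0.12, edgeR adjusted p = 0.0802).

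The next members in this order were BnaC04g00920D, with a mean of 54.6 CPM, and BnaA07g30390D, with 51.3 CPM, both without a read in Duplo. BnaCnng02600D, with 47.5 CPM, and BnaCnng02670D, with 45.8 CPM, had 4 and 10 Duplo reads. BnaCnng10440D had 35.7 CPM and 4 Duplo reads, all in the 29 °C libraries. BnaC03g00360D, with 34.0 CPM, and BnaAnng34540D, with 33.0 CPM, had none. These 12 genes carried 9 different chromosome labels.

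The spread between replicates was near that of other expressed genes. The median coefficient of variation between replicates was 0.0996 for the members at 29 °C and 0.101 at 21 °C, against 0.114 and 0.0864 for the other expressed genes. The highest Drakkar library had a median of 1.47 times the CPM of the lowest for members and 1.45 times for the others. A ratio of 2 was exceeded by 8 of the 88 members and by 12.2% of the other expressed genes. A coefficient of variation above 0.3 was reached by 4 members at 29 °C and by 4 members at 21 °C. BnaC09g38500D had 17.0, 26.8 and 23.3 CPM at 29 °C, against 51.8, 12.1 and 30.3 CPM at 21 °C. BnaCnng10420D had 7.40, 7.10 and 17.8 CPM at 29 °C, against 5.56, 8.36 and 8.73 CPM at 21 °C. BnaC09g38500D and BnaCnng10420D were named after their values were seen.

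In Duplo, 56 of the 88 genes had no read in any of the 6 libraries. For these genes the Drakkar mean was at least 51.3-fold to at least 589-fold higher (median of the bounds 94.0), taken against 3 reads in a Duplo library, 0.113 CPM at the shallowest. The other 32 genes had 1 to 14 reads over the 6 libraries, and 13 of them reached 3 reads in some library. Only 3 genes had a read in every Duplo library. The largest sum was that of BnaCnng10300D, with 3, 3 and 1 reads at 29 °C and 3, 3 and 1 reads at 21 °C in Duplo. Its Drakkar libraries held 24.0, 19.7 and 23.5 CPM at 29 °C, against 21.3, 19.3 and 20.2 CPM at 21 °C, a ratio of 275 between the varieties (exact Poisson 95% interval from 164 to 503). Like the interval above, this range takes no account of the choice of genes by their Duplo reads.

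Taken per library, the 88 genes held between 48605 and 69503 reads in Drakkar, which sums to 1612 to 1814 CPM, and between 20 and 33 reads in Duplo, which sums to 0.710 to 1.04 CPM. Between 12 and 17 of the genes had a read in a given Duplo library. The Duplo libraries at 29 °C held 33, 23 and 20 of these reads and those at 21 °C held 28, 22 and 28, so the 2 temperatures overlapped.

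The limits used to choose the genes cut through a continuous range. Just inside, BnaCnng07600D had a lowest Drakkar library of 5.01 CPM, BnaC03g01730D of 5.06 CPM and BnaC08g10790D of 5.07 CPM. Just outside, BnaC01g29770D had 4.94 CPM, BnaA02g07640D 4.91 CPM and BnaC07g36170D 4.83 CPM in their lowest Drakkar library, with at most 2 reads in a Duplo library. BnaC01g22800D, BnaC02g22000D and BnaC03g01450D were left out because their highest Duplo library had 4 reads, although BnaC03g01450D averaged 123 CPM in Drakkar. Among all expressed Drakkar genes, 131 had a Duplo mean under 1% of the Drakkar mean, and 43 of these were not members. A further 145 genes had 1 to 5%, 94 had 5 to 10%, 246 had 10 to 25% and 764 had 25 to 50%.

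To ask whether the genes that only Drakkar expressed responded to warm temperature, Drakkar at 29 °C was compared with Drakkar at 21 °C by edgeR's quasi-likelihood test over all 52709 genes with sufficient counts. A gene was called when its adjusted p-value was under 0.05 and its log2 fold change lay above 1 or below -1. All 88 members were tested, and 0 were called, against 3.24% of all genes tested and 1.00% of the other expressed genes. At an unadjusted p-value under 0.05 there were 24 members (27.3%), 12 in each direction, against 28.4% of all genes tested and 30.2% of the other expressed genes. DESeq2 called 1 member, against 4.72% of all genes tested and 1.50% of the other expressed genes. The difference between temperatures was not used to choose the members. The minimum of 5 CPM in every Drakkar library nevertheless left out genes that were off at 29 °C or at 21 °C. The other expressed genes had the same minimum and all genes tested did not, so the share of all genes tested is not a like comparison.

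The log2 fold changes of the members lay between -0.86 and 1.21, with a median of 0.05 and quartiles of -0.20 and 0.24. The median of all genes tested was 0.01 and that of the other expressed genes -0.11 (quartiles -0.30 and 0.11). An absolute log2 fold change above 0.5 was found for 11.4% of the members and 14.1% of the other expressed genes. When libraries were scaled by their totals alone, all medians moved up, to 0.17 for the members, 0.13 for all genes tested and 0.01 for the other expressed genes. With TMM factors, 56.8% of the members and 36.8% of the other expressed genes had a positive log2 fold change. Without Drakkar 29 °C replicate 2, the members' median was 0.07, and 1 member was called, against 5.89% of all genes tested and 2.36% of the other expressed genes.

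**Figure D2:**
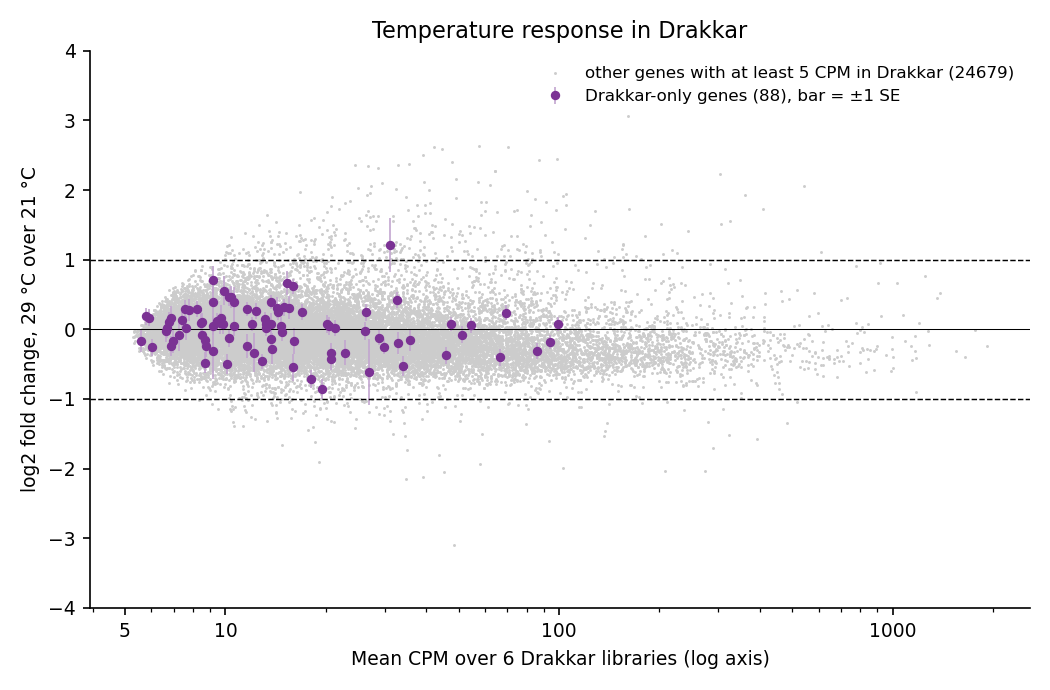
Log2 fold change between 29 °C and 21 °C in Drakkar against the mean CPM of the 6 Drakkar libraries (log axis), with the 88 members in purple (bars of 1 standard error) and the other 24679 expressed genes in grey. Dashed lines mark a log2 fold change of 1 and -1; 1 member lies beyond them, at 1.21, and 5 grey genes lie outside the plotted range.

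On CPM without further scaling, the 3 libraries at 29 °C lay entirely above those at 21 °C for 30 members and entirely below them for 10 members, and overlapped for 48. Among all genes tested, 24.9% lay above and 10.3% below, and among the other expressed genes 18.8% lay above and 15.2% below. The size of this split depended on the scaling, and for the other expressed genes its direction did: on CPM divided by the TMM factors, 18 members lay above and 14 below, against 17.8% and 17.0% of all genes tested and 11.6% and 26.3% of the other expressed genes.

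Of the members, 3 passed the adjusted p-value alone (3.41%, against 6.34% of all genes tested and 5.85% of the other expressed genes), each with a change below the fold threshold. BnaA06g18080D had 16.1, 13.5 and 14.2 CPM at 29 °C, against 25.8, 26.7 and 20.5 CPM at 21 °C, all lower at 29 °C. Its log2 fold change was -0.86 (standard error 0.14, edgeR adjusted p = 0.0244). BnaC06g00400D had 14.8, 15.6 and 12.8 CPM at 29 °C, against 20.6, 24.4 and 20.2 CPM at 21 °C, also without overlap. Its log2 fold change was -0.71 (standard error 0.13, edgeR adjusted p = 0.0309). BnaC03g01300D had 21.5, 19.7 and 18.5 CPM at 29 °C, against 11.7 to 12.1 CPM at 21 °C, again without overlap. Its log2 fold change was 0.62 (standard error 0.11, edgeR adjusted p = 0.0274). Each of the 3 genes kept an adjusted p-value under 0.05 when Drakkar 29 °C replicate 2 was left out and lost it when any one of the other 5 Drakkar libraries was left out.

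The highest log2 fold change belonged to BnaAnng19580D, which was also the only member with a gene name in the tables used. These list temperature-regulated and selected genes of the same study, so having a name is not independent of the temperature values. BnaAnng19580D is annotated with the Arabidopsis locus AT1G05340, CYSTEINE-RICH TRANSMEMBRANE MODULE 1, one of a family of small membrane-anchored proteins whose genes respond to stress in Arabidopsis. It had 43.2, 27.4 and 63.6 CPM at 29 °C, against 15.4, 10.8 and 27.0 CPM at 21 °C, and 1 read in the 6 Duplo libraries. The ranges of the 2 temperatures nearly touched, since the lowest library at 29 °C (replicate 2) was 27.4 CPM and the highest at 21 °C (replicate 3) was 27.0 CPM. The log2 fold change was 1.21 (standard error 0.39) and did not pass the threshold (edgeR adjusted p = 0.0969). It was called by DESeq2 (adjusted p = 0.0136) and by edgeR without Drakkar 29 °C replicate 2 (log2 fold change 1.47, adjusted p = 0.0464). No other identifier was annotated with this locus in the tables used. Since these annotate 2273 of the 101038 genes, other copies may exist without being seen here.

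The next highest values without overlap were those of BnaC04g17850D and BnaA03g48060D. BnaC04g17850D had 13.3, 8.42 and 13.7 CPM at 29 °C, against 6.33, 7.44 and 6.02 CPM at 21 °C (log2 fold change 0.71, standard error 0.19, edgeR adjusted p = 0.0670). BnaA03g48060D had 21.8, 14.8 and 21.6 CPM at 29 °C, against 9.82, 13.2 and 10.7 CPM at 21 °C (log2 fold change 0.66, standard error 0.18, edgeR adjusted p = 0.0644). For both genes replicate 2 was the lowest library at 29 °C and the highest at 21 °C. Among the lowest values without overlap, BnaC03g00360D followed the 2 genes above, with 35.2, 24.4 and 28.0 CPM at 29 °C, against 37.8, 40.1 and 38.4 CPM at 21 °C (log2 fold change -0.53, standard error 0.14, edgeR adjusted p = 0.0639).

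The members were unevenly spread over the chromosome labels. Of the 88 genes, 26 belonged to the A subgenome (0.217% of its 11966 expressed genes) and 62 to the C subgenome (0.486% of 12763). C03 alone held 18 members among 2056 expressed genes (0.875%), and identifiers of the Cnn type held 22 among 1427 (1.54%). C09 and Ann had 5 each, and A03, C04 and C07 had 4 each. A04 and Unn had none, and the other labels held 1 to 3 members. The genes that only Duplo expressed were placed differently, with 16 of 62 on C05, 9 on Cnn, 6 on C06 and 0 on C03. Since neighbouring genes are not independent, no test was made of these shares.

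**Figure D3:**
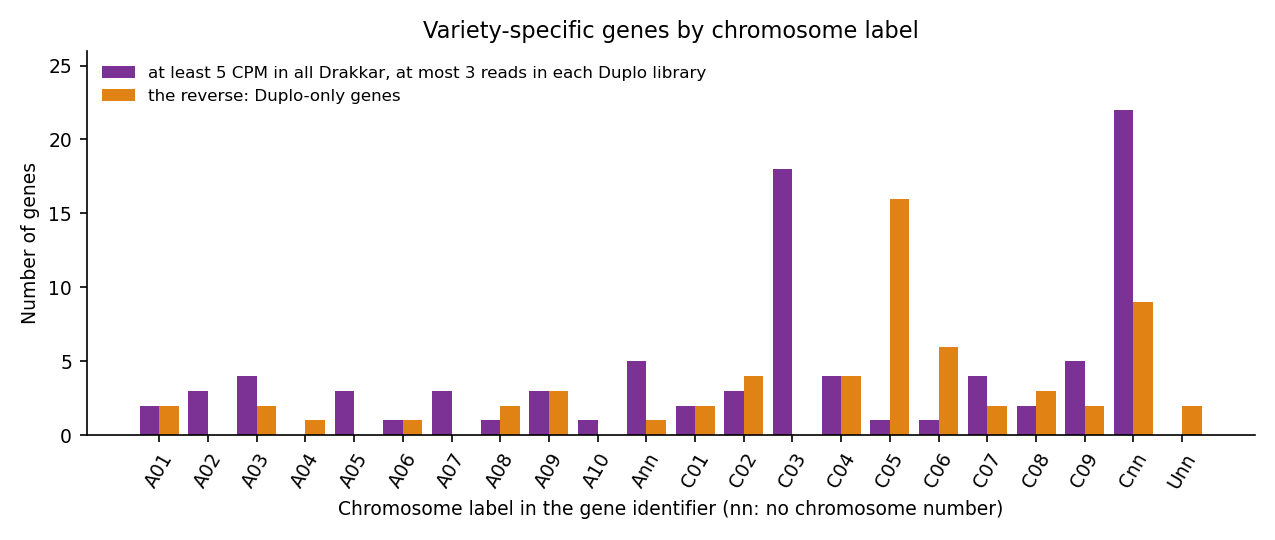
Number of genes expressed in Drakkar and absent in Duplo (purple) and of the opposite kind (orange) for each chromosome label in the gene identifiers. Purple bars are highest for Cnn (22) and C03 (18), and orange bars for C05 (16).

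In a narrow sense, few members were next to each other. When a run was defined as members on a numbered chromosome with no other expressed Drakkar gene between them, 4 runs of 2 genes were found, with 8 members. On A02, BnaA02g17790D had 14.7, 13.1 and 14.3 CPM at 29 °C, against 9.25, 11.7 and 11.4 CPM at 21 °C, and its neighbour BnaA02g17800D had 13.7, 13.3 and 10.3 CPM at 29 °C, against 8.86, 7.71 and 8.37 CPM at 21 °C. Both were higher at 29 °C in all libraries on this scale, neither passed the test, and neither had a read in Duplo. On C02, BnaC02g13680D and BnaC02g13700D had means of 8.77 and 6.77 CPM and no Duplo read.

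Both other runs were on C03. BnaC03g01300D, described above, was paired with BnaC03g01340D, which had 29.0, 29.2 and 27.4 CPM at 29 °C, against 29.5, 34.9 and 29.5 CPM at 21 °C. The members of this pair thus lay on opposite sides of 0 in their temperature values (log2 fold change -0.25 for BnaC03g01340D, standard error 0.11, edgeR adjusted p = 0.183). BnaC03g01720D had 39.1, 38.5 and 38.4 CPM at 29 °C, against 28.3, 23.5 and 28.0 CPM at 21 °C, and no Duplo read. Its neighbour BnaC03g01730D had 6.35, 7.97 and 7.65 CPM at 29 °C, against 7.15, 5.06 and 9.27 CPM at 21 °C, which overlapped, with 1 Duplo read.

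Members that were close without being adjacent were more common. When steps of up to 30 identifier positions were allowed, 34 members fell into 8 blocks and 54 remained single. This definition, like the stretches described next, was chosen after the data were seen. The largest block ran from BnaCnng10160D to BnaCnng10440D, 29 identifiers of which 12 were expressed in Drakkar and 9 were members. Its other 3 expressed genes were also higher in Drakkar, with log2 ratios of Drakkar over Duplo between 1.58 and 5.48 (0.5 CPM added to both means). Among them, BnaCnng10390D averaged 24.2 ± 2.79 CPM in Drakkar and 0.0511 ± 0.0463 CPM in Duplo (SD, n = 6 each) and missed the choice with 4 reads in its highest Duplo library. BnaCnng10190D was the least different, with 19.9 ± 1.77 CPM in Drakkar and 6.32 ± 0.955 CPM in Duplo (SD, n = 6 each). Here and below, an SD with n = 6 takes the libraries of both temperatures together. It therefore holds any temperature difference as well as the spread between replicates.

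The gene with most reads was part of a short block on C09. BnaC09g50660D, BnaC09g50670D, BnaC09g50680D and BnaC09g50690D have consecutive identifiers, and all 4 averaged under 1 CPM in Duplo, though only the outer genes met the choice. BnaC09g50680D averaged 132 ± 22.2 CPM in Drakkar and 0.773 ± 0.296 CPM in Duplo, and BnaC09g50670D averaged 27.3 ± 2.39 CPM in Drakkar and 0.208 ± 0.101 CPM in Duplo (SD, n = 6 each). The block on C03, from BnaC03g01080D to BnaC03g01730D, held 8 members among 28 expressed genes, and 19 of the other 20 had a log2 ratio above 1. The remaining gene, BnaC03g01590D, averaged 30.8 ± 25.5 CPM in Drakkar and 35.4 ± 31.0 CPM in Duplo (SD, n = 6 each). A contrasting case was C07, where BnaC07g04330D, between the members BnaC07g04320D and BnaC07g04430D, averaged 71.9 ± 18.4 CPM in Drakkar and 85.8 ± 15.6 CPM in Duplo (SD, n = 6 each).

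To see the members against their neighbours, the ratio of Drakkar over Duplo was followed along the identifier order with a running median of 20 genes over the 30120 genes with a mean of at least 5 CPM in either variety, leaving out the members and the Duplo-only genes. The median log2 ratio of all these genes was 0.02. There were 9 stretches in which the running median stayed beyond 0.5 or -0.5 for at least 20 genes, 4 with higher and 5 with lower counts in Drakkar. Since the stretches were found with these ratios, they are described without a test. Those with lower counts lay at the start of A03, further along A03, and on A10, C05 and Cnn. Their median log2 ratios were -0.83, -0.85, -0.94, -3.10 and -3.28 in this order. They held 1 member, BnaA03g55270D, in the stretch further along A03. The 4 stretches with higher counts in Drakkar held 20 of the 88 members (22.7%) and 311 of the 24767 expressed genes (1.26%), all 20 in only 2 of the stretches. Outside the 4 stretches, members made up 0.278% of the expressed genes.

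The longest of them covered the start of C03, from BnaC03g00250D to BnaC03g05770D, 553 identifiers with 187 expressed genes. It held 11 members (5.88% of its expressed genes), against 7 members among the 1869 expressed genes on the rest of C03 (0.375%). Of the 203 genes used there, 182 had a log2 ratio above 1, with a median of 2.90 (quartiles 1.96 and 3.68). In 94 of the 187 expressed genes the Duplo mean was under 10% of the Drakkar mean. The nearest other genes with at least 5 CPM in every Drakkar library, on either side of the 11 members, had a log2 ratio above 1 in 21 of 22 cases. The median of these cases was 3.49. Some genes were counted for more than 1 member, and genes low in Drakkar and high in Duplo could not be such neighbours. The 10 genes used before BnaC03g00250D, too few for a centred window, had a median of 2.63, whereas the next 50 genes used after BnaC03g05770D had a median of 0.04 (quartiles -0.04 and 0.16), and 0 of them a ratio above 1. The median log2 fold change of these 11 members between 29 °C and 21 °C in Drakkar was -0.08, and 6 of them had a read in Duplo.

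The other stretch with members ran from BnaCnng02590D to BnaCnng03500D, 92 identifiers with 36 expressed genes, of which 9 were members. Its 32 other genes used had a median log2 ratio of 3.44 (quartiles 2.41 and 4.29). Of the 22 members of the Cnn type, 9 were in this stretch, 9 in the block around BnaCnng10300D and 4 among the remaining 1379 expressed Cnn genes (0.290%). Genes with few reads were also examined: of those with a mean of 1 to 5 CPM in Drakkar, 14 of 18 in the Cnn stretch and 10 of 90 in the C03 stretch had at most 3 reads in each Duplo library, against 219 of 16295 outside the 4 stretches (1.34%).

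**Figure D4:**
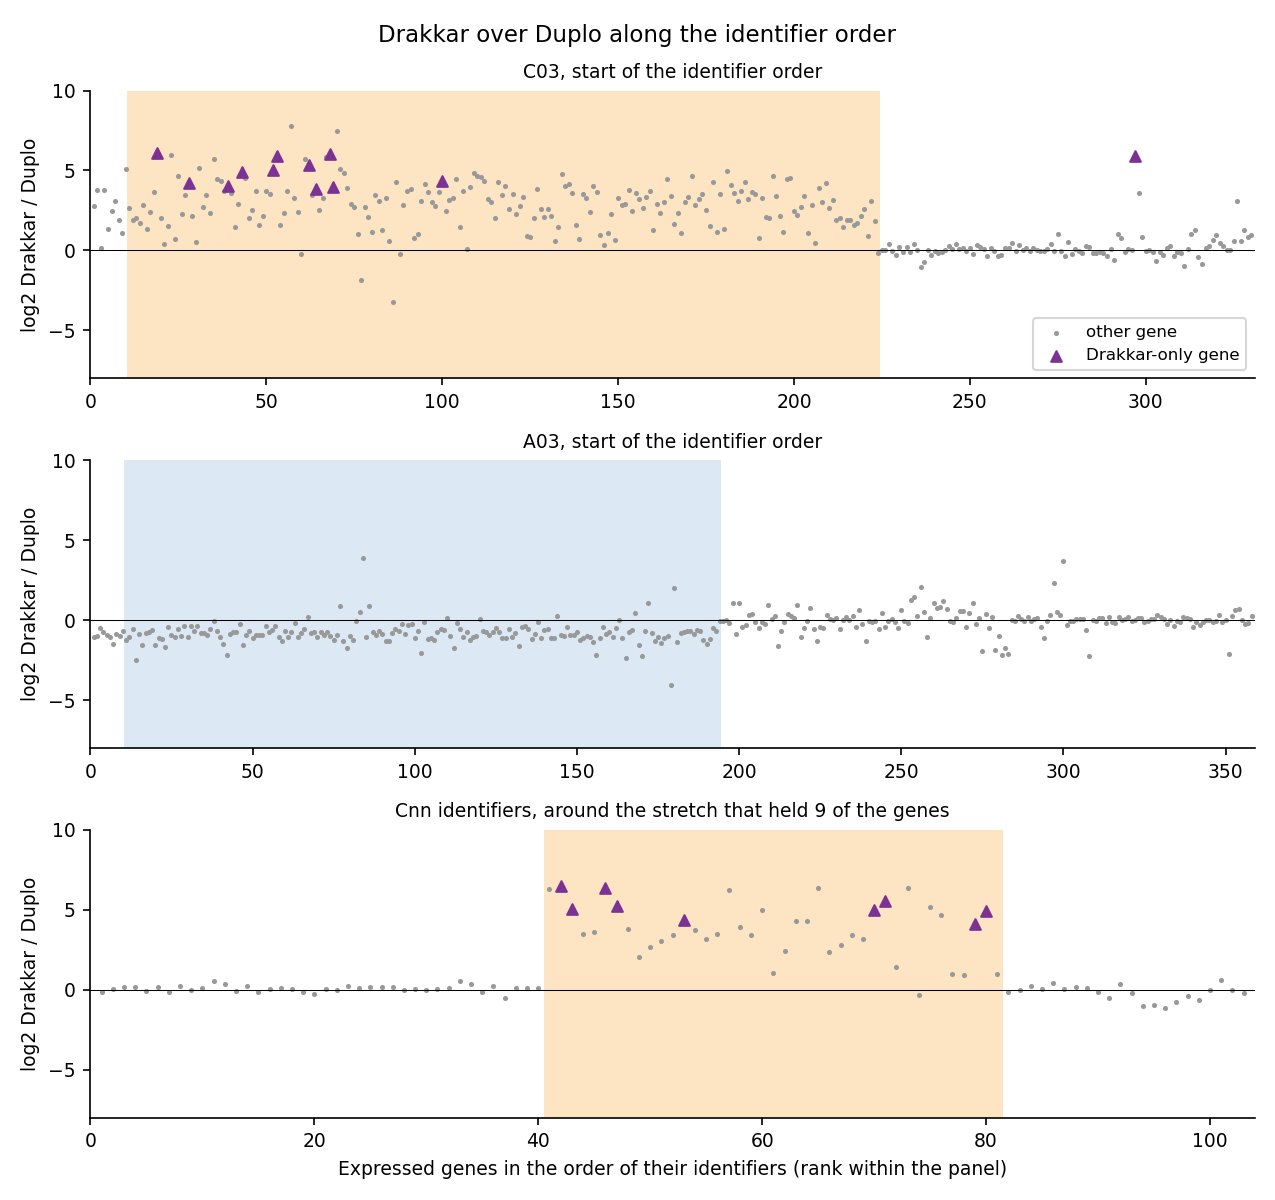
Log2 ratio of the mean CPM in Drakkar over that in Duplo (0.5 CPM added to both) for single genes in the order of their identifiers, for the start of C03, the start of A03 and part of the Cnn identifiers, with the members as purple triangles. Orange shading marks stretches with a running median above 0.5 and blue shading one below -0.5; the median of the other genes is 2.90 in the C03 stretch, -0.83 in the A03 stretch and 3.44 in the Cnn stretch.

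Of the 54 members outside blocks, 45 lay on numbered chromosomes, and 3 of these were in the C03 stretch and were counted with it above. For the other 42, the nearest other genes with at least 5 CPM in every Drakkar library were taken as neighbours. Of these 84 neighbours, 74 had a log2 ratio within 1 of 0 (median 0.13, quartiles -0.06 and 0.47), and for 34 of the 42 this held on both sides. Among all other expressed Drakkar genes 93.4% had a ratio within 1 of 0. Reads in Duplo were found for 13 of the 54 single members and for 19 of the 34 members in blocks. Median levels in Drakkar were 13.2 CPM for the single members and 13.4 CPM for those in blocks.

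The start of A03 showed the opposite ratio to the start of C03. From BnaA03g00350D to BnaA03g04140D, 173 of the 184 genes used were lower in Drakkar, with a median log2 ratio of -0.83 (quartiles -1.10 and -0.61), and no member was found. Summed over the genes used, the C03 stretch had 6477 ± 243 CPM in Drakkar and 1185 ± 244 CPM in Duplo, and the A03 stretch had 4697 ± 70.4 CPM in Drakkar and 8698 ± 168 CPM in Duplo (SD, n = 6 libraries each). The ranges of the varieties were far apart in both stretches, at 6126 to 6674 CPM in Drakkar and 1027 to 1656 CPM in Duplo for C03, and at 4608 to 4816 CPM in Drakkar and 8573 to 9016 CPM in Duplo for A03. The 2 stretches together came to 11174 ± 275 CPM in Drakkar and 9883 ± 236 CPM in Duplo, a ratio of 1.13. How reads were divided between the C03 and A03 genes was not tested.

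**Figure D5:**
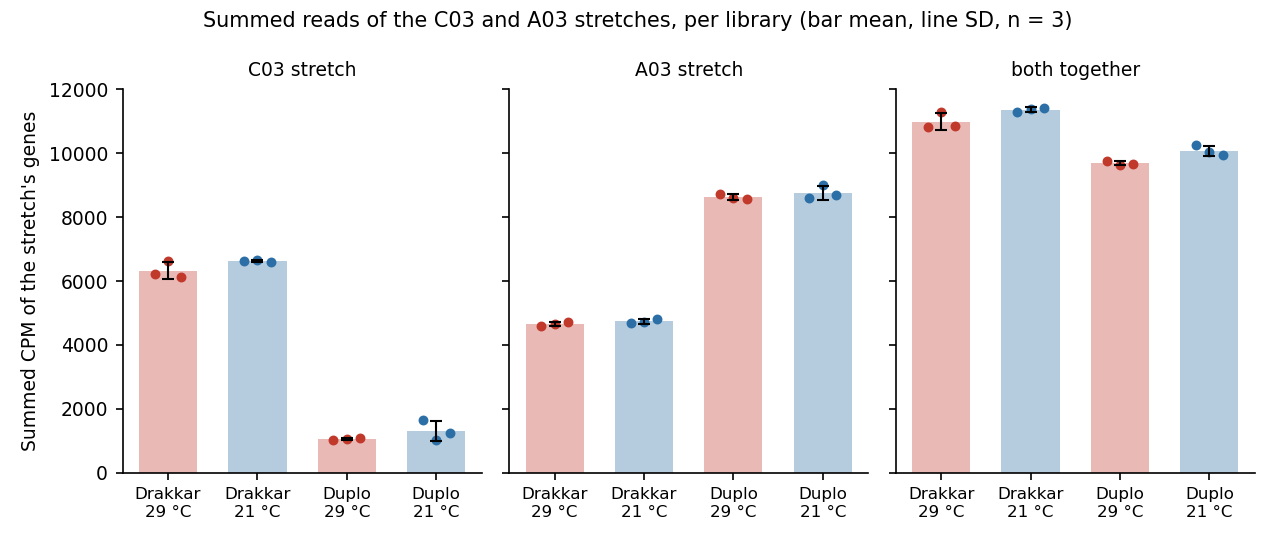
Summed CPM of the genes used in the C03 stretch, in the A03 stretch and in both together for each library (points), with the mean (bar) and SD (line) of 3 replicates, Drakkar on the left and Duplo on the right of each panel. Drakkar is higher in the C03 stretch (6126 to 6674 CPM, against 1027 to 1656 CPM in Duplo) and lower in the A03 stretch (4608 to 4816 CPM, against 8573 to 9016 CPM in Duplo).

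Arabidopsis loci were at hand for 16 genes of the C03 stretch and 13 of the A03 stretch, none of them members, from tables of temperature-regulated and selected genes. Of the C03 genes, 15 carried loci of Arabidopsis chromosome 5, which ran from AT5G01040 to AT5G12950 and increased at each of the 14 steps along the identifier order. Of the A03 genes, 11 carried such loci, from AT5G01050 to AT5G12950, again increasing at each of 10 steps. Of the 16 annotated C03 genes, 9 had a log2 ratio of Drakkar over Duplo above 1, and 1 had a ratio below 0. Genes with a known function in the C03 stretch that were higher in Drakkar included CDC48C (BnaC03g01160D), an AAA-type ATPase that extracts ubiquitinated proteins, with 60.2 ± 30.5 CPM in Drakkar and 2.12 ± 1.14 CPM in Duplo (SD, n = 6 each). A copy of FLC (BnaC03g04170D), the MADS-box repressor of flowering, had 2.13, 1.88 and 2.91 CPM at 29 °C, against 0.738, 0.200 and 0.417 CPM at 21 °C in Drakkar. In Duplo this copy had 0, 0 and 0 CPM at 29 °C, against 0.119, 0 and 0.134 CPM at 21 °C. All these FLC values lay below the 5 CPM used to find the stretches. In the Cnn stretch, PRR7 (BnaCnng03230D, AT5G02810), a pseudo-response regulator of the circadian clock, had 7.33, 8.04 and 8.88 CPM at 29 °C in Drakkar. Its Drakkar libraries at 21 °C held 2.58, 3.93 and 3.61 CPM. In Duplo PRR7 had 0.0315, 0.113 and 0.142 CPM at 29 °C, against 0.474, 0.0330 and 0.267 CPM at 21 °C. These genes were named after their values were seen.

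Copies of the small heat-shock gene HSP17.6II (AT5G12020), whose product is a cytosolic chaperone, lie in both the C03 and the A03 stretch. The C03 copy BnaC03g05240D had 51.6, 0.278 and 92.5 CPM at 29 °C, against 0.0568, 0.0501 and 0.0596 CPM at 21 °C in Drakkar, where replicate 2 at 29 °C stood apart. In Duplo it had 0.126, 0.339 and 0.462 CPM at 29 °C, against 0, 4.03 and 0 CPM at 21 °C. The A03 copy BnaA03g03740D had 215, 4.73 and 254 CPM at 29 °C, against 1.76, 0.851 and 1.01 CPM at 21 °C in Drakkar. In Duplo, the A03 copy had 1.80, 8.85 and 10.5 CPM at 29 °C, against 0, 94.9 and 0.134 CPM at 21 °C. In the Duplo library with most reads of both copies, 21 °C replicate 2, the A03 copy thus had 94.9 CPM and the C03 copy 4.03 CPM, while in Drakkar 29 °C replicate 3 they had 254 and 92.5 CPM.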

How the data were processed

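RNA of root tips from 12 samples was sequenced with a strand-specific paired-end kit. The authors aligned the reads with HISAT2 to the rapeseed reference genome and deposited raw counts per gene, 1 table per variety; the counting program, its strand setting and its treatment of reads aligning to several genes are not given in the sources used here. A line without gene name (0 to 2 reads per library, at most 6.55e-06%) was dropped. The deposited DESeq2 tables hold the authors' log2 fold changes and p-values and were not used. The paper gives a tip length that differs from the labels.

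CPM used library totals. Temperatures were compared in Drakkar with filterByExpr, TMM factors (0.943 to 1.06) and edgeR 4.0.16 (R 4.3.3, limma 3.58.1) with Benjamini-Hochberg adjustment; standard errors were obtained as the size of the log2 fold change over the square root of the F statistic. DESeq2 1.42.0, RLE factors, library totals, no filter, a minimum of 10 counts per library, a replicate block, robust dispersion estimates, 1 fit of 12 libraries and libraries left out in turn were alternatives, as were other limits for the choice of genes. Blocks and stretches, with their windows of 10 and 40 genes and thresholds of 0.7 and 1, were chosen after seeing the data. The fit and the search for stretches were tested on simulated data. Python 3.11.15, numpy 2.4.6, pandas 2.3.3 and matplotlib 3.10.9 were used.

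Members and lists were chosen with earlier results of these data known. Named genes are the 12 members with the highest mean CPM, the 3 highest and 3 lowest log2 fold changes without overlap of the temperatures (fewer than 6 members were called), members with a gene name, the ends of runs, and genes next to the limits. Names and loci come from supplementary tables. A RefSeq table of the Da-Ae assembly matched 3347 identifiers, 4 of them members, and added no name, so groups by function could not be formed. No genome sequence was used here, and coordinates are replaced by the identifier order. P-values set the difference between temperatures against the spread between the 3 biological replicates of each Drakkar group, all from 1 study.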

Additional observations from a re-analysis of the deposited data

How the results depend on the processing

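The number of genes expressed in Drakkar and absent in Duplo followed its limits: it was 173 with at least 2 CPM, 46 with at least 10 CPM and 56 with 0 counts in each Duplo library, while at most 10 counts gave 129, TMM-scaled CPM gave 89 (87 of them shared) and leaving out single libraries gave 88 to 94. Members in runs numbered 26, 2, 4 and 17 with these 4 limits in the same order (at least 2 CPM, at least 10 CPM, 0 counts, at most 10 counts), 4 with strict neighbours, 12 with 1 other expressed gene allowed between them, and 8 to 10 with single libraries left out. The longest run was 2 genes, or 3 with at most 10 counts and without Duplo 21 °C replicate 1. Members inside stretches higher in Drakkar numbered 18 to 20 under the other windows and thresholds and 20 with each library left out.

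In the temperature comparison of Drakkar, all genes called numbered 1707, with 545 under the replicate block, 1122 in 1 fit of all 12 libraries and 11 to 3173 with single libraries left out. They were 11 without 21 °C replicate 3, 126 and 131 without 21 °C replicates 1 and 2, 336 and 185 without 29 °C replicates 1 and 3, and 3173 without 29 °C replicate 2. Members called numbered 0, with 1 under DESeq2, 1 under the replicate block and 0 to 1 with single libraries left out, in each case BnaAnng19580D, whose log2 fold change was 1.20 under DESeq2, 1.23 under the block and 1.47 without 29 °C replicate 2. The 3 members with an edgeR adjusted p-value under 0.05 lost it under the replicate block (BnaA06g18080D 0.0553, BnaC06g00400D 0.0590, BnaC03g01300D 0.0725), and BnaC03g01300D also in 1 fit of all 12 libraries (0.0716). DESeq2 called 2488 of all genes. The median log2 fold change of the members was 0.05, with 0.17 for library totals alone and 0.01 to 0.07 with single libraries left out. None of the 6 genes named for their temperature values changed direction under any of these alternatives. They had been chosen as extremes without overlap of the temperatures, so this outcome was largely set by the choice. Same-numbered libraries of the 2 temperatures did not deviate together (correlations -0.07, -0.06 and 0.09), so the numbers were not taken as pairs. The cause of these changes was not tested. At this depth, the limit of 3 reads used for Duplo corresponded to about 0.1 CPM per library.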
